A study of Mus musculus with 15 samples.

Results

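The comparison is between pressure-loaded mouse hearts of 2 genotypes, filed as KO and as Cre. Its members are 6 of the 15 samples of the series, namely the 3 arrays titled KO TAC that could be used and the 3 titled Cre TAC. TAC, transverse aortic constriction, narrows the aorta so that the left ventricle pumps against a raised load. All animals were male mice on a C57BL6 background, 10 weeks old, and the apex of the heart was taken 3 days after the operation. The labels give the genotype of the KO group as MHC-cre-klf4 and that of the Cre group as MHC-cre, so both groups carry the cre transgene and only the KO group is meant to lack Klf4. In heart cre lines MHC usually names a cardiac myosin heavy chain promoter, which is active in cardiomyocytes, so other cells of the apex would keep their Klf4. The sham-operated animals of both genotypes (4 Cre and 4 KO arrays) were kept in the statistical fit and serve here only as the matching contrast without load. A design note gives 4 animals per group, and p-values measure the spread between these single hearts.

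Total RNA of each apex was read on a 1-colour Agilent array with Cy3 as the dye, 4 arrays to a slide. Levels below are log2 of a probe's processed signal relative to the 75th percentile of its array, so that 0 is a bright probe and 1 unit is a factor of 2. They order the arrays for 1 gene, and levels of different genes were not set against each other. On the 6 arrays compared the median signal was 94.2 to 121.7, 66.4% to 72.2% of probes were well above background, and each array's median correlation with the others was 0.961 to 0.982. The fourth KO TAC array was left out of every value below unless it is named. On it 95.9% of probes were well above background, the median signal was 445.4, and it correlated with the others at a median of 0.807. The slides hold the groups unevenly. Slide 1 carries Cre TAC replicate 1 and KO TAC replicate 2, and slide 3 carries Cre TAC replicate 3 and KO TAC replicate 3. KO TAC replicate 1 and Cre TAC replicate 2 sit on slides without a compared array of the other TAC group. The left-out KO TAC array shares slide 4 with Cre TAC replicate 2.

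The sign of every difference rests on the scanner files and their sample titles. In the deposited value table, 14 of the 15 arrays were found again by their values, and each of the 14 stood there under the opposite genotype with its operation kept. Read by the value table, every genotype difference below would carry the opposite sign, and nothing in the files settles which source is right. The description field also names the other operation for 7 of the 15 samples, among them 2 of the 6 compared (Cre TAC replicate 2 and KO TAC replicate 2). Below, KO and Cre mean the arrays filed so, and higher or lower means higher or lower in KO TAC than in Cre TAC.

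The targeted gene did not separate the groups. Klf4, a zinc finger transcription factor of the Kruppel-like family, read 4.23, 4.50 and 4.35 on the 3 KO TAC arrays and 4.25, 3.99 and 4.16 on the 3 Cre TAC arrays. The groups overlapped, with a difference of 0.28 ± 0.21 (SE; limma adjusted p = 0.40). In sham hearts Klf4 read between 3.26 and 4.49 in the 4 KO arrays and between 3.72 and 4.30 in the 4 Cre arrays, a difference of -0.04 ± 0.17 (adjusted p = 0.93). On the left-out array it read 3.52. The gene has 1 probe on the array. Which part of the gene was deleted is not stated in the labels, so whether this probe can report the deletion was not tested.

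Pressure overload is known to set off an early response in the heart within days: immediate early transcription factors, chemokines that call in neutrophils and monocytes, growth of the protein synthesis machinery, and a lowering of genes for adult metabolism and ion channels. Klf4 belongs to the Kruppel-like factors, which bind GC-rich sites in promoters and include known regulators of cardiac metabolism.

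Of 25095 features tested, 4362 (17.4%) passed an adjusted p of 0.05, with 2039 (8.13%) higher and 2323 (9.26%) lower. Shares of called list members below stand against this 17.4%. At an unadjusted p under 0.05 there were 3792 higher and 4555 lower. Among 14678 features with a gene symbol, 2620 (17.8%) passed, 1368 higher and 1252 lower. A difference of more than 1 log2 unit was found for 533 of the higher and 901 of the lower calls. The 3 KO and 3 Cre values did not overlap for 3523 of the 4362 calls and for 6701 of all features (26.7%). Within the 2 slides that hold compared arrays of both groups, 4361 of the calls had 1 sign on both, on the same arrays that made the calls.

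The number of calls rests on the design. With only the 6 TAC arrays and no slide term, 2 features passed, both lower, and 4937 had an unadjusted p under 0.05. With the 14 arrays but no slide term 1094 were higher and 1259 lower, and with the left-out array added 508 and 861. Leaving out Cre TAC replicate 1 left 425 higher and 555 lower, leaving out KO TAC replicate 3 left 537 and 657, leaving out Cre TAC replicate 3 left 858 and 951, and leaving out KO TAC replicate 2 left 1274 and 1653. The split between directions follows the scaling. With each array scaled to its median, 3101 features were higher and 1525 lower (67% higher, against 46.7% with the 75th percentile), and the median difference of all features moved from -0.06 to 0.08. Of the 4362 calls, 4362 kept their sign under median scaling and 3564 their call.

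**Figure D1:**
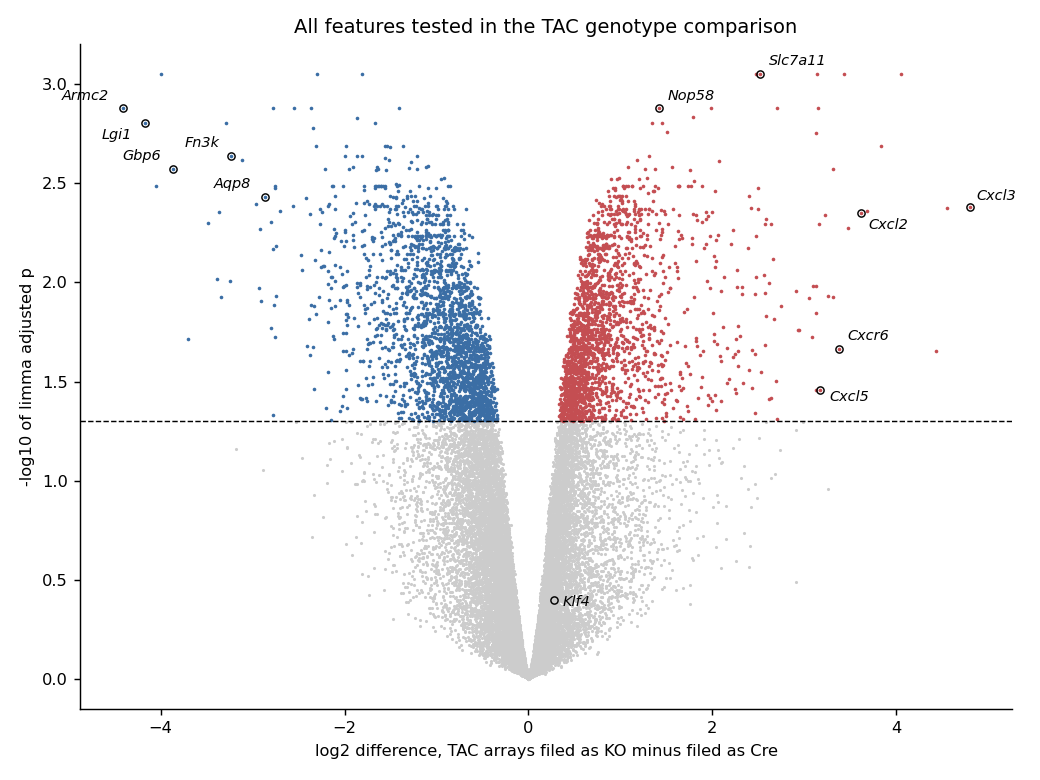
Each point is 1 of the 25095 features, with the log2 difference between TAC arrays filed as KO and as Cre on the x axis and -log10 of the limma adjusted p on the y axis. The dashed line marks an adjusted p of 0.05, with 2039 features above it to the right (red) and 2323 to the left (blue), and the genes labelled by name are ringed.

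Chemokines that attract neutrophils were among the largest rises. Cxcl1, Cxcl2, Cxcl3 and Cxcl5 encode secreted ligands of the receptor Cxcr2, and all 4 were called higher in KO TAC, Cxcl1, Cxcl3 and Cxcl5 by 2.57 to 4.80 log2 units and Cxcl2 by a bound given below. Their upstream sequences are shown first because Cxcl1, Cxcl2 and Cxcl3, which rose together, each held a kappaB motif, the kind of site that NF-kappaB binds. Capitals mark each match to GGG, then NN, then TTTCC (N is any base) on either strand, in the 250 bases before the RefSeq transcription start (GRCm38.p6), written 5′ to 3′ along the gene.
Cxcl1, chr5:90890995-90891244, plus strand: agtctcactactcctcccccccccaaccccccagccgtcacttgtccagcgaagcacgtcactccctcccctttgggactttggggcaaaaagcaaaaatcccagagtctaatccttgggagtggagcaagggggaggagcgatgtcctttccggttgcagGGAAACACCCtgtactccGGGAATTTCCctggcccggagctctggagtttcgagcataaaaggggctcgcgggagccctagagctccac
Cxcl2, chr5:90903649-90903898, plus strand: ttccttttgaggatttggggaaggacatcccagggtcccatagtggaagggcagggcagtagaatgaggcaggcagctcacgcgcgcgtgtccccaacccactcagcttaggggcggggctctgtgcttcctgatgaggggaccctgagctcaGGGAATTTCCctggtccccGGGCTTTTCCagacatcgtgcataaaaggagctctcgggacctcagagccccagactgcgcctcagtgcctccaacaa
Cxcl3, chr5:90785851-90786100, plus strand: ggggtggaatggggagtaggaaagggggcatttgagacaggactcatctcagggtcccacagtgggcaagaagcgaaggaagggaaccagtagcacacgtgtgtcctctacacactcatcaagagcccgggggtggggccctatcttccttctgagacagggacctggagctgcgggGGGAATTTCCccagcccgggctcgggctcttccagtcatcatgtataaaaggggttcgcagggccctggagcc
The matches ended 80 and 62 bases before the start in Cxcl1, 88 and 69 in Cxcl2, and 64 in Cxcl3. None overlapped another motif searched. Among 32 measured cytokine genes 23 had such a window and 6 of these (26.1%) held the motif, against 447 of 27025 genes (1.65%). Of the 6 called cytokine genes with a window, 3 held it. A match is a stretch of letters and was not tested for binding in these hearts.

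Cxcl3 read -2.10, 0.43 and -2.85 on KO TAC replicates 1 to 3 and -4.45, -5.31 and -8.62 on Cre TAC replicates 1 to 3. All KO arrays lay above all Cre arrays, 2 of the 3 Cre arrays were well above background, and the fitted difference was 4.80 ± 0.64 (SE; adjusted p = 0.00416). Its neighbour Cxcl2 read -4.04, -2.92 and -4.61 in KO TAC and was not well above background on any Cre TAC array. Against the lowest signal well above background it was at least 4.89-fold higher (adjusted p = 0.00445), and such bounds are used below wherever a group was nowhere well above background. The filter kept probes well above background on at least 3 arrays. Cxcl2 passed it only through KO TAC, the group where it is high, so its p-value is no separate support. It counts among the called cytokines below. Cxcl1 read 0.55, 0.92 and -0.07 in KO TAC and -1.74, -1.48 and -3.01 in Cre TAC, again without overlap (2.57 ± 0.38, adjusted p = 0.00504), and is named after its values were seen. Cxcl5 was the most uneven of the group, at 0.12, 2.71 and 1.25 in KO TAC against -0.04, -1.53 and -4.23 in Cre TAC. Its lowest KO value and highest Cre value nearly met (3.17 ± 0.86, adjusted p = 0.035), and its call ended without any 1 of 6 arrays (Cre TAC replicates 1 and 3, KO TAC replicates 2 and 3, Cre sham replicate 2 and KO sham replicate 4; adjusted p 0.051 to 0.16).

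Of the 32 measured cytokines and chemokines, 7 were called higher and 1 lower (25%, against 17.4% of all features), and the 8 called groups did not overlap. The list's median difference was 0.44, against -0.06 over all features. In sham hearts the list's median genotype difference was nearly the same, 0.39, and none of its members passed. Il1b, the inflammasome-processed cytokine, read -1.03, -0.05 and -1.59 in KO TAC and -2.75, -3.0 and -4.27 in Cre TAC. The 3 KO hearts were above the 3 Cre hearts (2.58 ± 0.54, adjusted p = 0.0147). The 1 member called lower was Ccl8, a monocyte chemokine, named after its values were seen. It read 0.49, -0.26 and 0.48 in KO TAC and 2.34, 2.04 and 1.82 in Cre TAC (-2.20 ± 0.63, adjusted p = 0.0429). Cxcl9 and Cxcl10, chemokines induced by interferon, had differences of -0.86 and -0.73 and did not pass. The 7 higher calls became 2 without KO TAC replicate 2 or replicate 3, 3 without Cre TAC replicate 3, and 4 without Cre TAC replicate 1, KO TAC replicate 1, Cre sham replicate 2 or KO sham replicate 4. The call of Il1b ended without Cre TAC replicates 1 or 3 or KO TAC replicates 2 or 3 (adjusted p 0.055 to 0.071).

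Neutrophil markers were higher with the chemokines. All 13 measured markers had differences above 0, from 0.9954 to 3.32 with a median of 1.72, and 6 passed the test (46.2%). In sham hearts their median genotype difference was 0.64 and none passed. Retnlg, a resistin-like protein of neutrophils, read -1.21, 0.88 and 0.20 in KO TAC and -2.38, -2.09 and -2.35 in Cre TAC (3.32 ± 0.65, adjusted p = 0.0118). S100a8, a calcium-binding alarmin of neutrophils, read 1.43, 2.77 and 2.11 against 0.41, 0.61 and 0.32 (2.71 ± 0.81, adjusted p = 0.0488). Both genes were separated without overlap, and KO TAC replicate 1 was the lowest of the KO arrays in each. The fitted differences of Retnlg and S100a8 include the slide term and exceed the gap between any KO and any Cre TAC array. Over the alternatives other than the exchanged operations they ranged from 1.69 to 3.84 for Retnlg and from 1.18 to 3.07 for S100a8. Cxcr2, the receptor of the chemokines above, read -3.54, -1.76 and -2.47 against -3.63, -4.26 and -4.89 (2.40 ± 0.61, adjusted p = 0.0278). Il1r2, a decoy receptor for interleukin 1, differed by 2.64 ± 0.73 (adjusted p = 0.0384). The summed signal of the list, which its brightest probes lead, was 4.34, 5.85 and 5.08 in KO TAC and 3.81, 3.64 and 3.29 in Cre TAC on the log2 scale. In sham hearts it was -0.66 to 0.98 in Cre and 0.38 to 0.95 in KO, apart from KO sham replicate 4 at 3.82, a level of the TAC groups.

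The neutrophil calls depended on the design. The call of Retnlg ended without Cre TAC replicate 1 or KO TAC replicate 3 and that of S100a8 without 12 of the 14 arrays in turn (adjusted p 0.053 to 0.118). The calls of Cxcr2 and Il1r2 ended without 5 and 8 of them (adjusted p 0.050 to 0.161). The 6 calls became 0 without a slide term, 0 without KO TAC replicate 3, 1 without any 1 of Cre TAC replicates 1 and 3 and KO TAC replicate 2, 3 without Cre TAC replicate 2 or Cre sham replicate 2, and 2 with the left-out array added. The list's median stayed between 1.04 and 2.05 over the alternatives other than the exchanged operations. In these bulk samples more cells of a type and more RNA per cell cannot be told apart, and what part the neutrophil level has in the chemokine values was not tested.

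Other large rises were of mixed kinds. Cxcr6, a chemokine receptor of T and NKT cells, read 3.39, 2.00 and 2.51 in KO TAC and -1.67, 0.89 and -2.13 in Cre TAC (3.37 ± 0.79, adjusted p = 0.0216). None of the 15 measured lymphocyte markers passed the test in limma, and 2 had an unadjusted p under 0.05. Stfa2l1, a stefin-like cysteine protease inhibitor, read -1.12, -0.01 and -0.95 against -2.49, -2.41 and -4.01 (3.13 ± 0.59, adjusted p = 0.0104). Its call ended without a slide term (2.28, adjusted p = 0.142) and with the left-out array added (2.27, adjusted p = 0.123). Stefin genes are near-identical copies, so the gene behind this probe is uncertain. Fam24b read -1.68, -0.98 and -1.37 against -4.50, -2.94 and -5.25 (3.31 ± 0.36, adjusted p = 0.00266). Sh2d5, an adaptor with an SH2 domain, read -2.52, 0.37 and -2.02 against -3.63, -3.19 and -5.79 (3.23 ± 0.46, adjusted p = 0.00455). In each of these 4 genes the lowest KO heart was above the highest Cre heart. Slc6a19, a transporter of neutral amino acids, was not well above background in Cre TAC and was at least 3.50-fold higher (adjusted p = 0.00504). Like Cxcl2, it passed the filter only through KO TAC. Masp1, a serine protease of the lectin complement pathway, Lypd1 and Lce1f differed by 3.12 ± 0.65, 3.25 ± 0.64 and 3.12 ± 0.85. In Lypd1 and Masp1 1 Cre array was well above background, so the sizes of these 2 differences rest partly on readings at background. Among the alternatives their lowest differences were 0.98 for Lypd1 and 0.99 for Masp1. The calls of Cxcr6, Lypd1, Lce1f and Masp1 ended without Cre TAC replicate 1 or 3 or KO TAC replicate 3, those of Cxcr6 and Lce1f also without KO TAC replicate 2, and that of Lce1f also without Cre sham replicate 1, 2 or 3 (adjusted p 0.053 to 0.157).

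**Figure D2:**
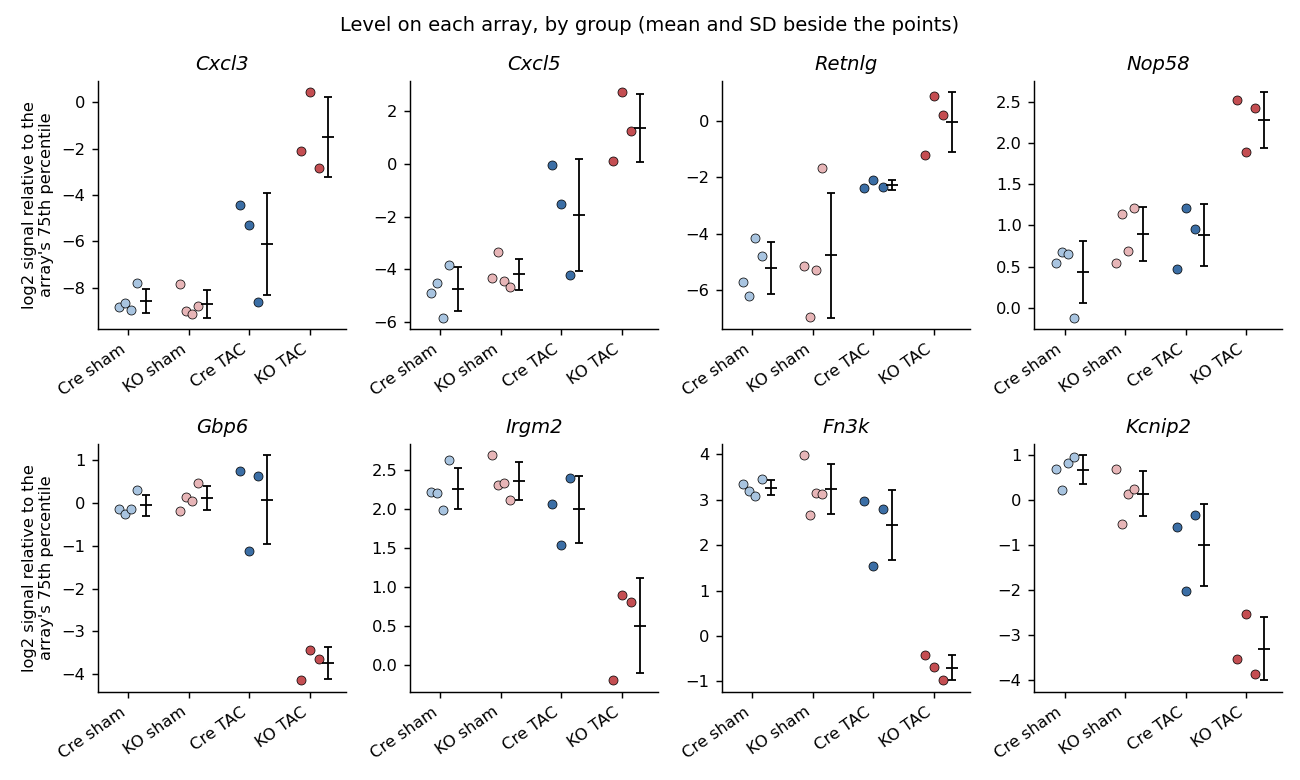
Log2 level relative to the array's 75th percentile (y axis) of 8 genes on each array, by group (x axis), with the group mean and SD beside the points. Cxcl3, Cxcl5, Retnlg and Nop58 sit higher in KO TAC than in Cre TAC, Gbp6, Irgm2, Fn3k and Kcnip2 sit lower, and no KO TAC point overlaps a Cre TAC point.

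Interferon response genes were lower as a group. All 36 measured members had differences below 0, from -0.17 to -3.86 with a median of -0.98, and 22 passed the test (61.1%, against 17.4% of all features). In sham hearts the list's median genotype difference was -0.01 and none of its members passed. These genes are switched on when interferons activate transcription factors that bind the interferon-stimulated response element (ISRE). Windows of 2 called members with that element are shown, with matches to GAAA, then NN, then GAAA on either strand in capitals, drawn as for the chemokines.
Irgm2, chr11:58214727-58214976, plus strand: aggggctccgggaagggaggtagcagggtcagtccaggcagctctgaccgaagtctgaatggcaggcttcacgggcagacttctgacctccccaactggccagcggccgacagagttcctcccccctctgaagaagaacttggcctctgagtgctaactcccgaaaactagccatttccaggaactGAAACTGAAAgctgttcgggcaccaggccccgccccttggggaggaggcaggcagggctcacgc
Oas3, chr5:120777660-120777909, minus strand: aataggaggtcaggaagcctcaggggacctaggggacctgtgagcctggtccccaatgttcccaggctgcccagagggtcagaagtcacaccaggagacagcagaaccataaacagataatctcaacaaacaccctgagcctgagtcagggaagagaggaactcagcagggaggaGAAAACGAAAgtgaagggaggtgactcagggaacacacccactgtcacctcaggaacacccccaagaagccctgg
The match ended 55 bases before the start in Irgm2 and 66 in Oas3. Of 28 interferon genes with a window 14 (50%) held the motif, against 936 of 27025 genes (3.46%), and 10 of the 18 called members with a window did. No window was at hand for Gbp6 or Zbp1.

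Gbp6, an interferon-induced guanylate binding protein that acts against microbes within cells, read -4.14, -3.43 and -3.65 in KO TAC and 0.74, -1.12 and 0.62 in Cre TAC. That is 14.5-fold lower without overlap (-3.86 ± 0.42, adjusted p = 0.00266), and the differences within slides 1 and 3 were -4.17 and -4.26. Zbp1, a sensor of Z-form nucleic acids, read -2.78, -2.05 and -2.90 against -0.31, -0.91 and -0.49 (-2.11 ± 0.33, adjusted p = 0.00583). Irgm2, an immunity-related GTPase, read -0.19, 0.90 and 0.82 against 2.06, 1.54 and 2.39 (-1.51 ± 0.22, adjusted p = 0.00496). In these 3 genes every KO heart was below every Cre heart. Oas3, a 2'-5' oligoadenylate synthetase, overlapped between the groups, at -6.33, -4.63 and -7.05 against -4.42, -4.22 and -5.11 (-1.48 ± 0.41, adjusted p = 0.0375). It was well above background on 1 KO array, and its call ended in 10 of 14 fits that left out 1 array (adjusted p 0.050 to 0.17). Transcription factors of the pathway were lower too, with Stat2 at -1.08, Irf7 at -1.21 and Irf9 at -0.86, all called. The groups of 20 of the 22 called members did not overlap, against 3523 of all 4362 calls and 26.7% of all features. The count became 6 without Cre TAC replicate 3 and 6 without KO TAC replicate 3, the pair on slide 3, where the list's median difference was -1.19 (slide 1: -0.44).

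Genes of ribosome biogenesis were higher, and by a small, even amount. The list had the largest share of called members of the 33 lists, with 22 of 27 measured genes higher (81.5%), none lower and a median of 0.65. All 27 differences were above 0, from 0.25 to 1.41, and their median in sham hearts was 0.14. Nop58, a core protein of the box C/D particles that guide ribosomal RNA methylation, read 2.52, 1.89 and 2.42 in KO TAC and 0.47, 1.21 and 0.96 in Cre TAC. It was 2.66-fold higher (1.41 ± 0.12, adjusted p = 0.00131), with 1.42 and 1.46 within slides 1 and 3. Nhp2, of the H/ACA particles that guide pseudouridylation, read 3.55, 4.00 and 4.04 against 2.86, 2.78 and 2.28 (1.18 ± 0.23, adjusted p = 0.0107). Gnl3, nucleostemin, read 1.49, 1.56 and 1.73 against 0.56, 0.78 and 0.59 (1.02 ± 0.13, adjusted p = 0.00366). Nop16 read 1.88, 2.34 and 2.32 against 1.43, 1.17 and 1.07 (0.96 ± 0.14, adjusted p = 0.00451), and its second probe gave 0.50. The 4 genes were separated on all 6 arrays, as were 21 of the 22 called members. The count became 11 without Cre TAC replicate 1 or KO TAC replicate 3, 14 without Cre TAC replicate 3, and 4 with the left-out array added.

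The proteins of the ribosome itself shifted less. Of 50 cytosolic ribosomal protein genes 49 had differences above 0, but 2 passed the test, and the median was 0.23. Under median scaling 9 of them passed. Of 58 mitochondrial ribosomal protein genes 3 were higher and 6 lower (15.5%, below the 17.4% of all features), with a median of -0.21. None of these 6 lower calls were left without any 1 of Cre TAC replicates 1 and 3 and KO TAC replicates 2 and 3, and 1 or 2 without any 1 of the Cre sham arrays. The E-box CACGTG, the site of Myc and its relatives, stood in the window of 1 of 22 ribosome biogenesis genes (4.55%), against 6.86% of all genes.

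Immediate early transcription factors were higher in part. Of 22 measured members 9 were called higher and none lower (40.9%), with a median of 0.85 and no overlap in the 9. Fosl1, a Fos-family partner of Jun, read -2.28, -1.39 and -1.81 in KO TAC and -4.13, -3.33 and -5.30 in Cre TAC (2.46 ± 0.59, adjusted p = 0.0229). Btg2, an antiproliferative early response gene, read 4.20, 3.61 and 3.45 against 1.75, 2.14 and 1.71 (1.82 ± 0.26, adjusted p = 0.00455). Myc, the growth regulator, read 2.09, 2.57 and 2.13 against 0.60, 0.28 and -0.23 (1.82 ± 0.41, adjusted p = 0.0191). Each of the 3 was higher in all 3 KO hearts. Egr2 read 3.17, 2.06 and 1.78 against 0.64, 0.92 and -0.41 (1.66 ± 0.45, adjusted p = 0.035). Myc and Egr2 also had positive, uncalled differences in sham hearts, 1.13 and 1.02. Jun, Fosb and Jund, with differences of -0.28, -0.08 and 0.04, did not pass. The 9 calls became 4 without Cre TAC replicate 1 or KO TAC replicate 3 and 5 without Cre TAC replicate 3 or KO TAC replicate 2. The calls of Fosl1 and Myc ended without any 1 of those 4 arrays (adjusted p 0.070 to 0.107), and that of Egr2 without those, Cre sham replicate 2 or KO TAC replicate 1 (adjusted p 0.052 to 0.135).

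Within the Kruppel-like family 3 of 16 measured members were higher and 3 lower (37.5%), and the median difference was 0.24. Klf15, which promotes fatty acid and amino acid use in the adult heart, read 1.23, 1.04 and 1.40 in KO TAC and 2.23, 2.58 and 2.59 in Cre TAC. It was 2.10-fold lower without overlap (-1.07 ± 0.17, adjusted p = 0.00618), and its second probe gave -1.43. Klf6 read 4.53, 5.01 and 4.89 against 3.93, 3.97 and 3.81 (0.87 ± 0.16, adjusted p = 0.00892). Klf11 read -1.33, -1.0 and -0.85 against -2.20, -1.84 and -1.64 (0.83 ± 0.21, adjusted p = 0.03). Both were higher in all 3 KO hearts, and their second probes gave less, 0.56 for Klf6 and 0.39 for Klf11. Klf3 overlapped between the TAC groups, at -0.12, 0.38 and -0.37 against 0.95, 0.35 and 0.64 (-0.76 ± 0.19, adjusted p = 0.0249). It was also called in sham hearts (-1.15 ± 0.15, adjusted p = 0.0465), and its second probe differed by -0.04 after TAC. Klf2 and Klf5, relatives of Klf4, had differences of -0.17 and 0.30 and did not pass. When Cre TAC replicate 1 or KO TAC replicate 3 was left out, none of the 3 higher calls and 1 of the 3 lower calls were left. Without Cre TAC replicate 3, 1 call in each direction was left, and 1 higher call stood when KO TAC replicate 2 was dropped. Klf6, Klf11 and Klf3 each lost their call in some of these fits (adjusted p 0.053 to 0.141).

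Among circadian genes calls went both ways, and the largest were falls of clock outputs. Of 19 members 2 were called higher and 4 lower (31.6%), with no overlap in the 6. Dbp, a clock-driven transcription factor, read 2.28, 2.45 and 2.28 in KO TAC and 4.02, 3.46 and 4.53 in Cre TAC (-1.72 ± 0.30, adjusted p = 0.00824). Per3 read -5.61, -5.38 and -5.43 against -3.90, -4.66 and -3.76 (-1.38 ± 0.25, adjusted p = 0.00977). The call of Per3 ended without Cre TAC replicate 1 or KO TAC replicate 3 (adjusted p = 0.0576 and 0.0516), with normexp and quantile normalization (-0.47, adjusted p = 0.0608) and with the left-out array added (-0.20, adjusted p = 0.899). Dbp and Per3 were 3.29-fold and 2.60-fold lower in the 14-array fit, with the 3 KO hearts close together. Bhlhe40, a repressor of clock genes, read 2.79, 3.04 and 2.68 against 2.26, 2.09 and 1.76 (0.86 ± 0.13, adjusted p = 0.00583). Rora, an activator of Arntl, read -0.18, 0.14 and -0.39 against 0.73, 0.42 and 0.58 (-0.82 ± 0.15, adjusted p = 0.0103). Arntl and Nr1d1 had differences of 1.16 and 1.10 that did not pass. The labels do not state the hour at which tissue was taken. The 4 lower calls became 1 without KO TAC replicate 3 and 2 without Cre TAC replicate 1. The 2 higher calls became 1 without any 1 of 6 arrays (Cre TAC replicates 1 and 3, KO TAC replicates 1 and 3, Cre sham replicate 2 and KO sham replicate 4) and 0 without a slide term.

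Of 26 antioxidant genes 7 were called higher and 1 lower (30.8%), with a median of 0.18. Slc7a11, the cystine importer that feeds glutathione synthesis, read -6.05, -4.31 and -5.62 in KO TAC and was well above background on no Cre TAC array. It was at least 1.77-fold higher (adjusted p = 0.000888). It was well above background on no sham array either, so it passed the filter only through KO TAC, where it is high. Its p-value is thus no separate support, and it counts among the 7 higher calls. Txnrd1, thioredoxin reductase, read 4.26, 4.73 and 4.67 against 3.58, 3.53 and 3.19 (1.21 ± 0.14, adjusted p = 0.0030). Srxn1, sulfiredoxin, read 2.61, 3.85 and 4.31 against 2.41, 2.28 and 2.28 (1.34 ± 0.31, adjusted p = 0.0208). These are known targets of Nrf2, as are Nqo1, Hmox1 and Gclm, whose differences of 0.34, 0.65 and 0.73 did not pass. Gsta3, a glutathione transferase, was the 1 member called lower, at 0.89, 1.09 and 1.18 against 2.90, 1.14 and 2.56. Its groups overlapped at Cre TAC replicate 2 (-1.57 ± 0.41, adjusted p = 0.0302). The antioxidant response element TGACNNNGC stood in 6 of 20 windows of the list (30.0%, against 11.5% of all genes), 2 of them of called members. The 7 higher calls became 2 without KO TAC replicate 3, 3 without Cre TAC replicate 1 or KO TAC replicate 2, and 4 without Cre TAC replicate 3. Srxn1 lost its call without any 1 of these 4 arrays (adjusted p 0.070 to 0.093), and Gsta3 without 5 of 14 (0.053 to 0.139).

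Genes of the unfolded protein and integrated stress responses split. Of 29 measured members 7 were higher and 1 lower (27.6%), with a median of 0.27 and no overlap in the 8. In sham hearts the list's median genotype difference was 0.18. Atf3, a stress-induced repressor, read 3.82, 2.76 and 2.22 in KO TAC and 1.07, 1.14 and 0.99 in Cre TAC (1.49 ± 0.44, adjusted p = 0.0475). Herpud1, which helps degrade misfolded proteins at the endoplasmic reticulum, read 3.48, 2.96 and 3.71 against 4.28, 4.27 and 4.82 (-1.17 ± 0.16, adjusted p = 0.00424). Manf and Ppp1r15a differed by 0.88 ± 0.19 and 0.87 ± 0.25 (adjusted p = 0.0173 and 0.0403). Herpud1 thus moved against the other called members, while the chaperone Hspa5 and the factor Ddit3, at 0.41 and 0.05, did not pass. The 7 higher calls became 0 without KO TAC replicate 3, 1 without Cre TAC replicate 1 or 3, 4 without KO TAC replicate 2 and 3 without a slide term, and 1 with the left-out array added. The calls of Atf3, Manf and Ppp1r15a ended without 8, 3 and 9 of the 14 arrays in turn (adjusted p 0.051 to 0.172).

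Cardiac ion channel genes were lower where they passed. Of 23 genes of calcium handling and ion channels 6 were called lower and none higher (26.1%), with a median of -0.55. Kcnip2, the subunit that shapes the transient outward current, read -3.53, -2.52 and -3.86 in KO TAC and -0.61, -2.03 and -0.35 in Cre TAC. It was 4.72-fold lower without overlap (-2.24 ± 0.39, adjusted p = 0.00828). Kcnh2, the channel of the rapid delayed rectifier current, read -0.44, 0.11 and -0.53 against 1.16, 0.54 and 0.74 (-1.07 ± 0.13, adjusted p = 0.00366). Kcnj11, the pore of the ATP-sensitive potassium channel, read -0.15, -0.50 and -0.76 against 0.60, 0.19 and 0.59 (-0.98 ± 0.19, adjusted p = 0.0106). The called members carry potassium or pacemaker currents, whereas the calcium handling genes Atp2a2, Ryr2 and Slc8a1 had differences of -0.34, -0.13 and 0.11 and did not pass. The 6 calls became 2 without Cre TAC replicate 1 or KO TAC replicate 3 and 3 with the left-out array added. The call of Kcnj11 ended without either of those 2 arrays (adjusted p 0.058 to 0.064).

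Several genes of glucose use were lower. Of 27 genes of glycolysis, glucose uptake and glycogen 7 were called lower and 1 higher (29.6%). Slc2a4, the insulin-responsive glucose transporter, read 5.71, 4.80 and 4.66 in KO TAC and 6.14, 5.73 and 6.4 in Cre TAC (-1.11 ± 0.30, adjusted p = 0.0356). Pfkl, a phosphofructokinase, read 1.23, 1.21 and 0.84 against 2.21, 1.92 and 2.09 (-1.04 ± 0.15, adjusted p = 0.00451). Pygm, the muscle glycogen phosphorylase, read 2.87, 2.59 and 2.32 against 3.61, 3.11 and 3.97 (-1.01 ± 0.24, adjusted p = 0.0227). All 3 were lower in each KO heart than in any Cre heart. Ppp1r3c, a glycogen-targeting phosphatase subunit, overlapped, at 4.05, 2.31 and 3.04 against 3.89, 3.94 and 4.15 (-1.08 ± 0.25, adjusted p = 0.0195). The list's median of -0.14 became 0.0026 under median scaling, with 3 lower calls. The 7 lower calls became 1 without any 1 of Cre TAC replicates 1 and 3 and KO TAC replicates 2 and 3, 3 without Cre sham replicate 2 or 3, 4 without Cre sham replicate 1 or KO sham replicate 3, and 3 without a slide term. The calls of Slc2a4, Pygm and Ppp1r3c ended without 8, 4 and 4 of the 14 arrays in turn (adjusted p 0.050 to 0.173), and that of Pfkl in no such fit. Among fatty acid uptake and oxidation genes 0 of 31 passed, of the tricarboxylic acid cycle 1 of 25 (lower), and of respiratory complex I 1 of 36 (lower). All 25 cycle genes had differences below 0, with a median of -0.33. The counts moved with the scaling: with normexp and quantile normalization 5 cycle genes and 8 of complex I were lower, with quantile normalization of the processed signal 2 and 5, and in the authors' values 2 and 4. Leaving out KO TAC replicate 1 gave 3 cycle genes and 4 of complex I, leaving out KO sham replicate 2 gave 2 and 3, and leaving out Cre TAC replicate 2 gave 2 of each. Neither list had a lower call without any 1 of Cre TAC replicates 1 and 3 and KO TAC replicates 2 and 3, and complex I had none without any 1 of Cre sham replicates 1, 2 and 3. Of the fatty acid genes 3 were lower without Cre TAC replicate 2 and 2 higher without Cre TAC replicate 3.

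The largest falls of single genes lay mostly outside these lists. Fn3k, fructosamine 3-kinase, which removes sugar adducts from proteins, read -0.42, -0.68 and -0.97 in KO TAC and 2.97, 1.55 and 2.78 in Cre TAC. It was 9.39-fold lower (-3.23 ± 0.33, adjusted p = 0.00231), and its second probe gave -1.40. Asb10, a SOCS-box adaptor of ubiquitin ligases, read 0.40, 0.00 and -0.03 against 2.98, 2.14 and 3.18 (-2.78 ± 0.24, adjusted p = 0.00131). Its relative Asb15, a muscle gene, was well above background on no KO array and was at least 2.96-fold lower (adjusted p = 0.0024). Ip6k3, an inositol hexakisphosphate kinase of muscle, read -2.31, -4.34 and -4.36 against -0.09, -0.77 and -0.72 (-3.37 ± 0.47, adjusted p = 0.00439). Pacsin1, a membrane-bending protein, read -0.94, -2.10 and -2.33 against 1.19, 0.31 and 0.86 (-2.90 ± 0.58, adjusted p = 0.0125). In Ip6k3 and Pacsin1 the KO TAC replicate 1 heart was the one nearest to the Cre hearts, still without overlap.

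Aqp8, a water channel, read -2.16, -2.03 and -1.46 in KO TAC and 1.08, -0.30 and 1.52 in Cre TAC (-2.87 ± 0.36, adjusted p = 0.00368). Cyp1a1, the xenobiotic-inducible cytochrome, read -5.51, -7.95 and -6.62 against -4.07, -4.14 and -2.34 and was well above background on 1 KO array (-3.70 ± 0.84, adjusted p = 0.0192). Armc2, Lgi1 and Lrrc52 were well above background on all 3 Cre arrays and on no KO array. They were at least 6.98-fold, 5.27-fold and 6.23-fold lower (adjusted p = 0.00131, 0.00157 and 0.00958). Cngb3, a cyclic nucleotide-gated channel subunit, was at least 3.22-fold lower at an adjusted p of 0.0468, and its call ended without any 1 of 9 arrays (adjusted p 0.060 to 0.185). When Cre TAC replicate 1 or KO TAC replicate 3 was left out, the calls of Cyp1a1 (adjusted p 0.098 to 0.101) and Pacsin1 (0.064 to 0.070) ended. That of Cyp1a1 also ended without a slide term and with the replicate number as block in place of slide. It ended too with normexp and quantile normalization and in the authors' values with their own groups. Over the alternatives the difference of Cyp1a1 ranged from -4.72 to -1.29. With the left-out array added, 10 of the 24 genes of largest difference lost their call, among them Armc2, Lgi1 and Asb15 (adjusted p 0.076 to 0.241).

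**Figure D3:**
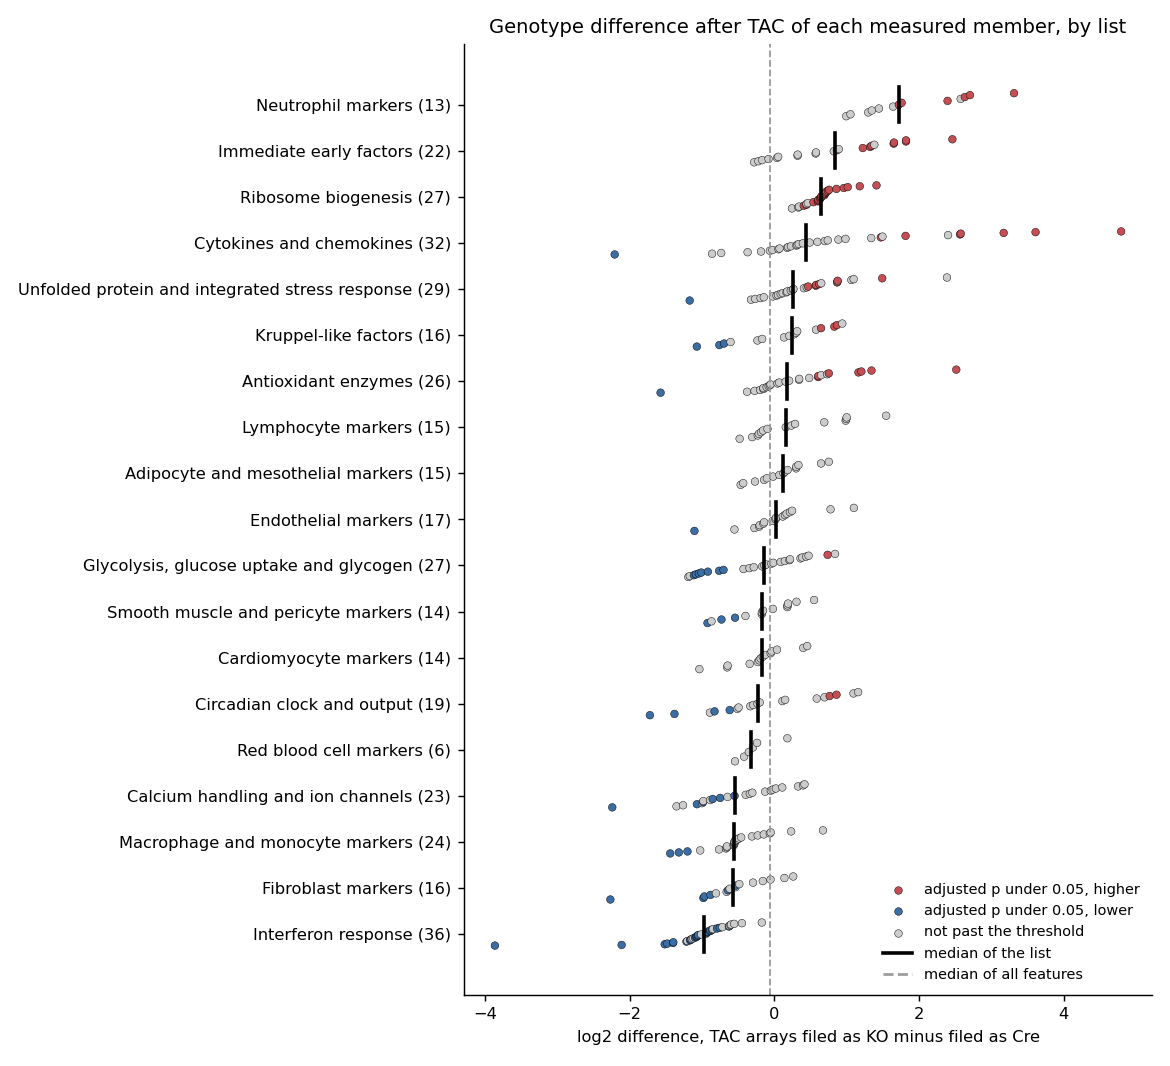
Each point is 1 measured member of a gene list, at its log2 difference between TAC arrays filed as KO and as Cre (x axis), with lists ordered by their median (black bar) and the number of measured members in brackets. Red and blue mark members called higher and lower. Interferon response lies wholly below 0, and ribosome biogenesis and neutrophil markers lie wholly above it.

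The cell type markers were read as a check of the tissue and of its makeup. All 14 cardiomyocyte markers were measured, with a summed log2 signal of 11.16 to 11.53 in KO TAC and 11.22 to 11.57 in Cre TAC, and 0 of 14 passed limma's test, with 5 at an unadjusted p under 0.05. Other settings called some of them: 3 were lower with array weights, with the slide as a random block, with normexp and quantile normalization and without Cre TAC replicate 2, and 2 in the authors' values and without KO TAC replicate 1. Without KO sham replicate 2 or 4 there was 1 lower call, and without KO TAC replicate 2 there was 1 higher. Ckm, the muscle creatine kinase, came nearest, at 3.63, 3.88 and 3.17 in KO TAC and 5.0, 3.63 and 4.99 in Cre TAC, with overlap (-1.03 ± 0.31, adjusted p = 0.0505). Of the other cardiomyocyte markers, Myh6 and Pln differed by -0.65 ± 0.22 and -0.64 ± 0.23 and Hspb7 by 0.46 ± 0.17, none past the threshold, and the list's median was -0.17.

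Fibroblast markers were lower, with 6 of 16 called (37.5%), none higher and a median of -0.58. Scara5, a ferritin receptor of stromal cells, read -2.81, -1.83 and -2.57 in KO TAC and 0.39, -1.30 and 0.07 in Cre TAC (-2.26 ± 0.31, adjusted p = 0.00424). Tcf21, a factor that defines cardiac fibroblasts, read -1.41, -1.03 and -1.01 against 0.02, -0.48 and -0.44 (-0.88 ± 0.16, adjusted p = 0.00914). Lum and Dpt, matrix proteins, differed by -0.98 ± 0.24 and -0.96 ± 0.19 (adjusted p = 0.0255 and 0.0117). The 6 called markers were separated without overlap, while Pdgfra and Col1a1, at 0.26 and -0.05, did not pass. The summed signal was 8.44 to 8.66 in KO TAC and 8.75 to 9.04 in Cre TAC. The 6 calls became 1 without Cre TAC replicate 1, 2 without KO TAC replicate 3 and 3 without a slide term, and that of Lum ended without either of these or KO TAC replicates 1 or 2 (adjusted p 0.051 to 0.13).

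Macrophage and monocyte markers were lower for 3 of 24 (12.5%, below the 17.4% of all features), with 22 differences below 0 and a median of -0.55. Of the 3, Timd4 and Folr2 are markers of resident cardiac macrophages. Timd4, a receptor for dying cells, read -4.58, -4.57 and -5.40 in KO TAC and -3.50, -3.86 and -3.46 in Cre TAC (-1.44 ± 0.26, adjusted p = 0.00936). Folr2 read 1.08, 1.12 and 1.14 against 2.39, 2.18 and 1.97 (-1.20 ± 0.20, adjusted p = 0.00668). Cx3cr1 differed by -1.32 ± 0.33 (adjusted p = 0.0268), but its second probe gave -0.37. The call of Cx3cr1 ended with quantile normalization, with or without normexp, and in the authors' values read by the scanner files' groups. Ccr2 and Ly6c2, markers of recruited monocytes, had differences of -0.56 and -0.06 and did not pass. Within slide 1 the list's median was -0.68 and within slide 3 it was 0.13. The 3 calls became 1 without Cre TAC replicate 1 or KO TAC replicate 3 and 9 without Cre TAC replicate 3. The call of Timd4 ended without either of the first pair (adjusted p 0.050 to 0.052) and that of Cx3cr1 without those, Cre TAC replicates 2 or 3 or KO TAC replicate 2 (0.050 to 0.094).

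Smooth muscle and pericyte markers were called lower for 3 of 14 (21.4%), near the 17.4% of all features. They were Myh11 (-0.92 ± 0.17, adjusted p = 0.00997), Smtn (-0.73 ± 0.21, adjusted p = 0.0458) and Rgs5 (-0.54 ± 0.14, adjusted p = 0.0335). None of the 3 was called without a slide term, and 1 was left without any 1 of Cre TAC replicates 1 and 3, KO TAC replicates 2 and 3 and Cre sham replicates 1, 2 and 3. Of 17 endothelial markers 1 was called (5.9%, below the share of all features). This was Kdr, the receptor of vascular endothelial growth factor, at 2.19, 1.85 and 1.44 against 2.81, 2.53 and 3.46 (-1.10 ± 0.32, adjusted p = 0.0449). Its call ended in 9 of 14 fits that left out 1 array (adjusted p 0.054 to 0.201). Adipocyte and mesothelial markers (15 measured) and red blood cell markers (6 measured) had 0 calls in limma, with 1 and 0 members at an unadjusted p under 0.05. What part any shift of cell types has in the other lists was not tested.

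**Figure D4:**
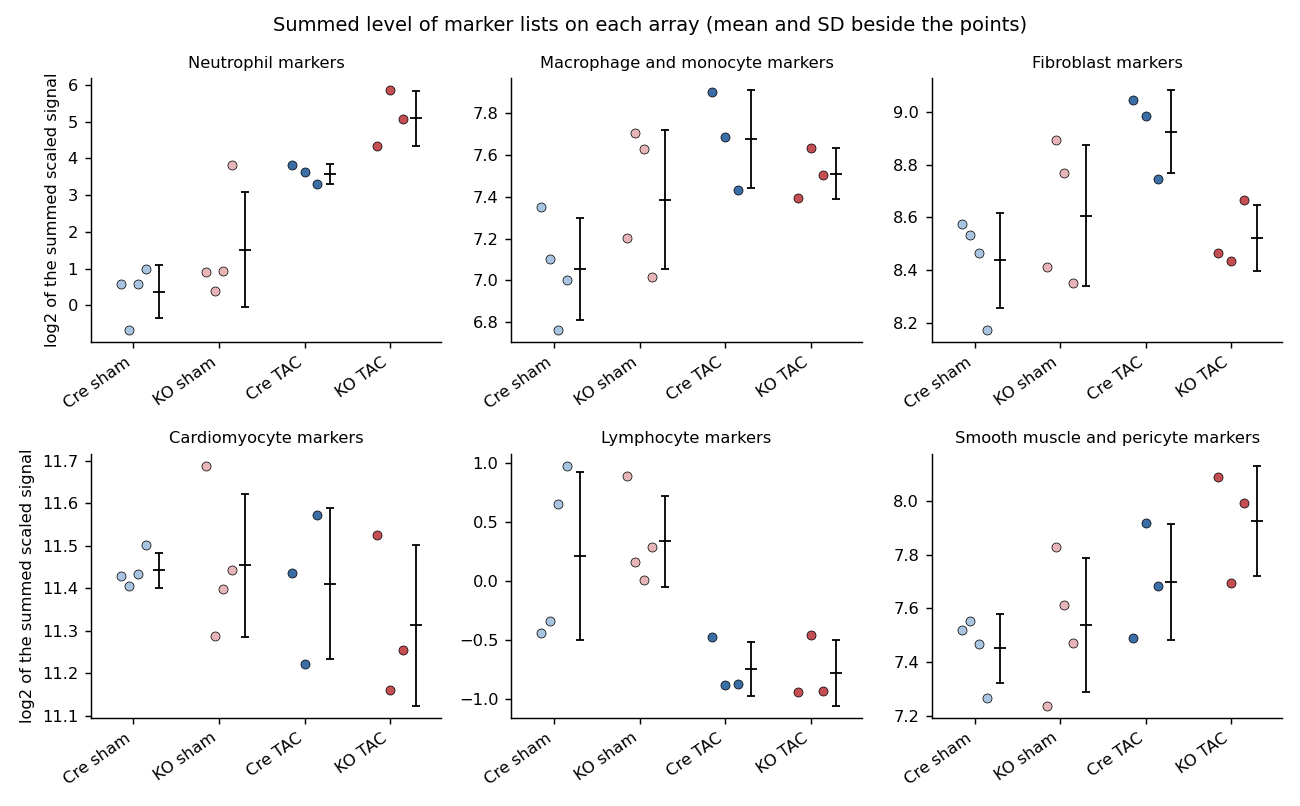
Log2 of the summed scaled signal of 6 marker lists (y axis) on each array, by group (x axis), with the group mean and SD beside the points. The neutrophil sum is 4.34 to 5.85 in KO TAC and 3.29 to 3.81 in Cre TAC, 1 KO sham array sits at 3.82 among sham arrays of at most 0.98, and the cardiomyocyte sum lies between 11.16 and 11.57 in both TAC groups.

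The same genotype contrast in sham hearts gave few calls. It shares no array with the TAC contrast, though it shares slides and the estimate of spread. Of 25095 features 16 passed (0.0638%), 6 higher and 10 lower, and 3967 had an unadjusted p under 0.05. Of the 16, 14 were also called after TAC. Hdhd3, which lies within 150 genes of Klf4 on its chromosome, read 1.33, 1.20 and 1.43 in KO TAC and 0.39, 0.08 and 0.38 in Cre TAC. Its differences were 0.96 ± 0.11 after TAC and 1.51 ± 0.09 after sham (limma adjusted p = 0.0030 and 0.000717). Eps8l1, an actin regulator, was lower under both operations, by -1.99 ± 0.20 and -1.63 ± 0.17. Gdpgp1, a GDP-glucose phosphorylase, was lower by -0.67 ± 0.09 and -0.60 ± 0.07, and the unnamed probe A_51_P370073 by -3.29 ± 0.30 and -2.50 ± 0.24. Except for Eps8l1, whose sham groups overlapped, the genotypes were separated without overlap under both operations in these 4 features.

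The difference between the 2 genotype contrasts was tested directly. Here 330 features passed (1.32%), 118 positive and 212 negative, and 4633 had an unadjusted p under 0.05. Of the 330, 319 were also called after TAC. Of the 105 named genes 22 passed. Most of the 105 were named for their difference after TAC, which is a term of this test. The choice favours a pass, so 22 of 105 cannot be set against the 1.32% of all features. Aqp8 had genotype differences of opposite sign, with -2.87 ± 0.36 after TAC and 1.63 ± 0.30 after sham (adjusted p of the difference = 0.00874). Gbp6 differed by 0.18 after sham and -3.86 after TAC (adjusted p of the difference = 0.023), and Zbp1 by 0.66 and -2.11 (0.0333). Fn3k, Armc2 and Klf15 also passed, with sham differences between -0.40 and 0.04. Slc7a11, Cxcl3 and Cxcl2 passed too, but were well above background on no sham array, so the size of their contrast is not known. For Retnlg, Cxcr6, Cxcl5, Myc and Kcnip2 the difference of contrasts did not pass (adjusted p 0.117 to 0.539), so a different effect in loaded hearts was not shown for them.

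**Figure D5:**
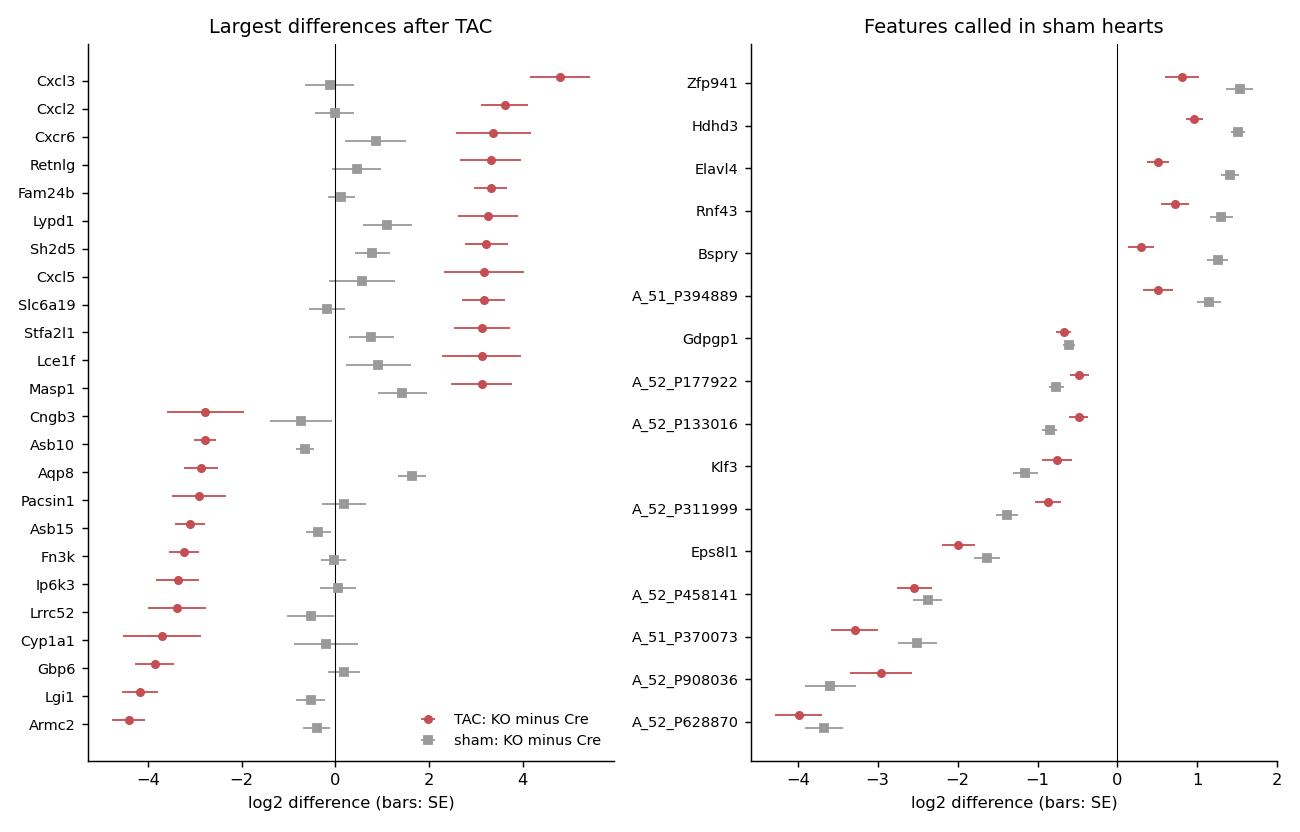
Log2 genotype differences with their SE (x axis) after TAC (red circles) and after sham (grey squares), for the 24 genes of largest difference after TAC (left) and the 16 features called in sham hearts (right). On the left Aqp8 has its values on opposite sides of 0, and values of genes well above background on no array of a group (such as Cxcl2 and Armc2) are readings at background, not sizes of a change. On the right the TAC and sham values of all 16 features share a sign.

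Genes that flank Klf4 on its chromosome were read as a group of their own. Among the 150 genes on each side in RefSeq order, 79 were measured and 13 were called after TAC (16.5%, against 17.4% of all features), 11 higher and 2 lower. After sham 2 of the 79 were called, Hdhd3 and Bspry, out of 16 calls in all, which are 0.0638% of all features. Bspry, a regulator of calcium entry, read -5.20, -4.25 and -4.36 in KO TAC and -4.58, -4.56 and -4.87 in Cre TAC, with 0.30 ± 0.16 after TAC (adjusted p = 0.229) and 1.26 ± 0.13 after sham (adjusted p = 0.0123). Zfp37 read -2.50, -2.16 and -1.57 against -3.87, -2.78 and -3.81 (1.47 ± 0.32, adjusted p = 0.0179). Col27a1, a fibrillar collagen, read -1.76, -1.62 and -1.99 against -2.50, -2.92 and -2.98 (1.09 ± 0.17, adjusted p = 0.00555), but its second probe gave 0.33. The other called neighbours were smaller, from 0.41 for Anp32b to 0.85 for Ptbp3, apart from Rnf183 at 1.48 ± 0.41, which was well above background on 1 Cre array. Trim14 and Ptpn3 differed by -0.64 and -0.61 with overlapping groups. The calls of Anp32b, Trim14, Ptbp3, Rnf183 and 7 others of the 13 ended in at least 1 fit that left out 1 array, and those of Hdhd3 and Col27a1 in none.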

How the data were processed

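The 15 scanner files hold 1-colour intensity values, which the authors deposited as Agilent Feature Extraction 10.7.3.1 made them, per the file headers: background-subtracted processed signals of 41174 probes. The value table the authors deposited holds normalized values on what reads as a log2 scale, whose rank order within an array matches the median signals; its exact scale is not stated, and the submitters' processing notes name limma, with no version. Its direction between genotypes opposes that of the scanner files.

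Processed signals were divided by each array's 75th percentile and put on the log2 scale, and 126 values of outlier-flagged spots were set missing. Probes well above background on at least 3 arrays were kept (31715), and each gene was read by 1 probe. This left 25095 features, 14678 of them with a symbol. Of 1041 called genes with several probes, 160 had another probe with a difference of the other sign. All features were fitted with limma 3.58.1 in R 4.3.3 on 14 arrays, with the 4 groups and the slide as a fixed block. P-values were adjusted by Benjamini-Hochberg over all features at 0.05, and every adjusted p is limma's. A ± gives the SE of a fitted difference, which the slide block can move from the difference of means. Where a group was nowhere well above background, folds are bounds from the lowest signal well above background on each array. The number of arrays limits the precision.

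Members and gene lists were chosen with earlier results of these data known. The genes named are Klf4, the 12 largest called differences in each direction without overlap, as many as 4 genes of a described list, and called neighbours of Klf4; others were chosen after their values were seen. Promoter windows are those of RefSeq (GRCm38.p6). Alternatives covered scaling, background correction, filter, slide, sample choice and each array left out. The array files have no mean signal, so normexp used the median signal and median background. Some members of the lists are not reported here by name.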

Additional observations from a re-analysis of the deposited data

Results flagged for a closer look

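In sham hearts filed as KO, replicate 4 had a summed neutrophil level of 3.82, while the other KO sham arrays lay between 0.38 and 0.95. Armc2 read -2.63 on Cre sham replicate 4 against -3.37 to -3.27 on the other Cre sham arrays, and Lrrc52 read -4.91 on that array against -4.76 to -4.74. These were 3 of 68 groups of 4 arrays examined for 1 array far from the others, where chance gives about 1 in 20.

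For 22 of 105 named genes the genotype difference after TAC minus that after sham passed limma's test (adjusted p 0.00806 to 0.04999). It was positive for Fam24b (3.19), Txnrd1 (1.06), Nop58 (0.96) and Tmeff1 (0.86). It was negative for Aqp8 (-4.50), Gbp6 (-4.04), Ip6k3 (-3.42), Fn3k (-3.19), Zbp1 (-2.77) and Asb10 (-2.13). It was also negative for Irgm2 (-1.61), Dpt (-1.37), Herpud1 (-1.26), Klf15 (-1.11) and Kcnh2 (-0.89). In 7 further genes at least 1 of the 4 groups was nowhere well above background, so the fitted numbers rest on readings at background and are not sizes of a change. They were positive for Cxcl3 (4.92), Cxcl2 (3.63), Slc6a19 (3.34) and Slc7a11 (2.62), and negative for Armc2 (-4.01), Lgi1 (-3.64) and Asb15 (-2.75). The difference was tested within the same fit of 14 arrays. Most named genes were chosen by their difference after TAC, a term of this test, so the choice favours a pass.

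The value table holds 1 column, labelled KO TAC replicate 4, that matches no scanner file. For 3781 of the 4362 features called, its value lay on the side of the arrays filed as Cre, and for 21 of the 24 genes of largest difference it was nearer the Cre mean. The exceptions were Retnlg, Cxcl5 and Stfa2l1. The table's labels run opposite to those of the scanner files, so under its own labels this column stood with the other KO columns.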

How the results depend on the processing

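Counts are given as higher and lower, against 2039 and 2323. No slide block gave 1094 and 1259, the replicate block in place of slide 664 and 940, and all 15 arrays 508 and 861. Only the 6 TAC arrays compared, with no slide block, gave 0 and 2, and the operation of the description field 0 and 1 (2516 at an unadjusted p under 0.05). Median scaling gave 3101 and 1525, array weights 2911 and 3584, and the authors' value table with its own groups and the sign turned 1685 and 1454. Leaving out each array in turn gave 425 to 2283 higher and 555 to 2814 lower. Quantile normalization, normexp, the random slide block, the filters, the mean over probes, trended eBayes, kept outliers and the value table in the scanner files' groups stayed within 1.5 times. With all 15 arrays Cd8a (0.50), Wt1 (-0.047), Trim14 (0.59) and Ptpn3 (0.26) changed sign. So did Fech with the mean over probes (-0.028) and Retn with the description's operation (-0.51). With 1 array left out Retn ranged from -0.17 to 1.15, Hbb-bt from -0.51 to 0.042 and Slc4a1 from -0.67 to 0.055. Of 3227 values of single genes under an alternative, 2579 kept direction and side of the threshold, 606 lost the call, 33 gained one and 9 changed sign; the cause was not tested. Replicate numbers do not pair the samples: deviations of arrays with the same number correlated at a median of 0.063 (lowest -0.42), and those on the same slide at 0.452.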

Other observations

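The families below were chosen after their values were seen. Their shares of called members stand against 17.4% of all features. Complement genes were lower for 6 of 21 and higher for 1 (33.3% called). C3, the central component, read 5.06, 5.11 and 4.97 in KO TAC and 6.79, 6.16 and 6.67 in Cre TAC (-1.56 ± 0.19, adjusted p = 0.00335), and C1s1, a protease of the classical pathway, read 0.07, 0.06 and 0.07 against 1.67, 1.14 and 1.62 (-1.55, adjusted p = 0.00271). For both the genotype difference after TAC minus that after sham also passed (limma adjusted p = 0.0193 and 0.0294).

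Guanylate binding proteins were lower for 5 of 8 (62.5%), with a median of -1.05, and aquaporins for 4 of 9 (44.4%). Aqp4 read -4.06, -4.78 and -5.70 in KO TAC and -2.54, -3.35 and -2.66 in Cre TAC (-2.14, adjusted p = 0.00943). Of 62 potassium channel subunits 12 were lower and 1, Kcna4 (1.41), was higher, 21.0% in all and near the share of all features. Stefin probes were higher for 6 of 9 (66.7%), and since these genes are near-identical copies the count may hold fewer genes.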
